A study of Homo sapiens with 6 samples.

Results

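The transcripts of H460 cells, which derive from a large cell carcinoma of the human lung, were compared between hypoxia and normoxia on 2 of the 6 deposited arrays, those of the cells that received only the solvent. All cells were kept for 16 h in medium with a low serum content, either at 1% oxygen (hypoxia) or in normoxia, and both arrays compared here carried 0.1% dimethyl sulfoxide (DMSO). The other 4 arrays served as a check: 3 held hypoxic cells and 1 held normoxic cells that received the compound of the study, an inhibitor of mitochondrial complex I that lowers the HIF-1α protein. The normoxic array of the check and 1 of its hypoxic arrays had 100 nM of the compound. For the remaining pair of hypoxic arrays title and source name contradict each other: the array titled 10 nM has the source name 1 nM, and the array titled 1 nM has the source name 10 nM. Here they go by their titles, and their doses are left unordered. Each condition is 1 array, so a difference between hypoxia and normoxia has no replicate check and no p-value. A difference between cultures or arrays and a difference by oxygen cannot be told apart from the DMSO arrays alone.

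Cells sense a lack of oxygen mainly through the hypoxia-inducible factors (HIF). Prolyl hydroxylases use oxygen to mark the HIF α subunits, and the von Hippel-Lindau protein then directs them to degradation. Without oxygen the α subunit stays, pairs with HIF-1β (ARNT) and binds short hypoxia response elements near genes for glucose uptake, glycolysis, blood vessel growth and vessel tone, matrix synthesis and the turnover of mitochondria. Severe hypoxia is also known to slow processes that cost the cell energy, such as the building of ribosomes and entry into S phase.

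In hypoxia the transcripts highest above normoxia were those of the repressor HES1, the ankyrin repeat protein ANKRD37 and the vasodilator precursor ADM, each by more than 11-fold on the DMSO arrays. Part of the HES1 difference rested on the normoxic DMSO array, at 347 against 1247 in normoxia with 100 nM. Functional groups that contain HIF targets held larger shares of genes higher by 2-fold or more than the 1.67% of all genes. The largest were transcriptional repressors (7 of 13), mitophagy and stress genes (5 of 12) and receptors and surface proteins (6 of 15). On the hypoxic arrays with DMSO and titled 10 nM, 5, 5 and 4 of these were 2-fold above both normoxic arrays, beside 0.787% of all genes. Lower transcripts included TFRC, the transferrin receptor, and many factors that build ribosomes, whereas ribosomal proteins and respiratory subunits stayed within 2-fold with few exceptions. Part of the largest differences, those of FOS and CHAC1 among them, rested mainly on the normoxic DMSO array alone.

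Values are deposited intensities on a linear scale, and a log2 ratio is the log2 intensity in hypoxia with DMSO minus that in normoxia with DMSO. Among 18417 genes, hypoxia was higher by 2-fold or more in 307 (1.67% of the genes) and lower by 2-fold or more in 676 (3.67%). In what follows 2-fold stands for 2-fold or more. At 4-fold, 39 were higher and 33 lower, and at 8-fold 4 were higher and 5 lower. The 4 were HES1, ANKRD37, ADM and FOS, and the 5 were CHAC1, EIF5, MKKS, LIMD1-AS1 and NMRAL2P. Genes whose mean over the 6 arrays was above that of the median probe set, here called brighter, made up 239 of the 307 and 572 of the 676. MKKS and LIMD1-AS1 were dimmer genes, and LIMD1-AS1 was at 18.15 in hypoxia with DMSO and 153.2 in normoxia with DMSO. Against normoxia with 100 nM the log2 ratios of CHAC1, EIF5, MKKS, LIMD1-AS1 and NMRAL2P were 0.44, -0.62, -0.88, -1.54 and -1.75. Of all genes 57.4% had a log2 ratio above 0. The median log2 ratio was 0.08 over all genes (-0.04 with centred arrays), -0.05 over the 11307 brighter genes and 0.23 over the 7110 dimmer ones, so that a small positive ratio of a dim gene is close to the bulk of dim genes. The arrays themselves differed in their median by 0.115 on the log2 scale, and after centring of every array the counts were 224 higher and 915 lower, so that 19.7% of these genes were higher, against 31.2% as deposited.

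**Figure D1:**
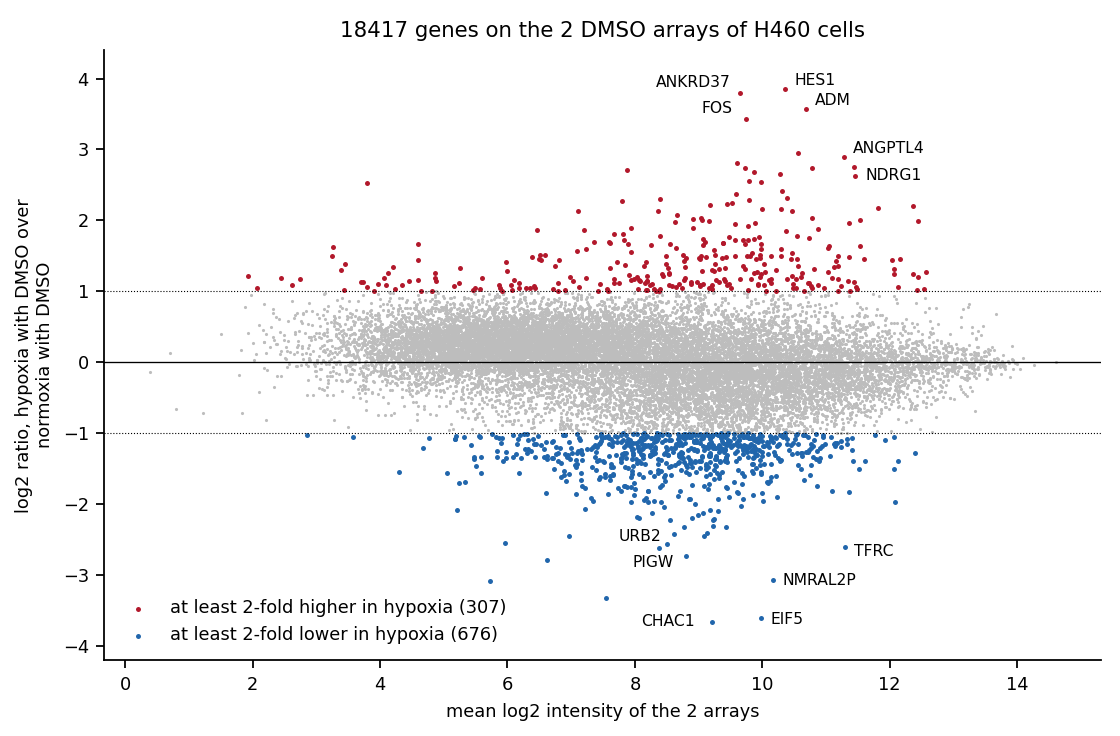
Log2 ratio of intensity, hypoxia with DMSO over normoxia with DMSO (vertical axis), against the mean log2 intensity of the 2 arrays (horizontal axis) for 18417 genes, 1 point per gene. Dotted lines mark 2-fold; the 307 higher genes are red, the 676 lower genes are blue, and the lower genes lie mainly in the middle and upper part of the intensity range.

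The other arrays show how far 2 arrays of this series differ. For hypoxia with DMSO over normoxia with DMSO the difference that 95% of the genes stayed under was 2.21-fold among brighter genes and 1.77-fold among dimmer genes. For hypoxia with DMSO over the array titled 10 nM it was 1.36-fold among brighter genes and 1.60-fold among dimmer genes. The 2 normoxic arrays also differed, since normoxia with DMSO was at least 2-fold above normoxia with 100 nM in 176 genes and 2-fold below it in 66. This touches the DMSO comparison. Of the 307 genes higher in hypoxia, 185 also exceeded normoxia with 100 nM by 2-fold, 74 exceeded it by 1.5-fold to 2-fold, and 48 lay within 1.5-fold of it. Of the 676 lower genes only 170 were also 2-fold below normoxia with 100 nM, whereas 260 were between 1.5-fold and 2-fold below it, 244 within 1.5-fold and 2 above it by more than 1.5-fold. In 112 of the 676, normoxia with 100 nM was itself at least 2-fold below normoxia with DMSO, and in 29 of the 307 it was 2-fold above. An effect of the compound in normoxia and a culture that stands apart cannot be told apart here.

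The ratio of the array titled 10 nM over normoxia with 100 nM shares no array with the DMSO comparison, although both of its cultures received the compound. By this ratio 271 of all genes were 2-fold higher (1.47%) and 81 were 2-fold lower (0.44%). Of the 307 genes chosen on the DMSO arrays, 158 were at least 2-fold higher by it and 274 were above 0, with a median log2 ratio of 1.02. Of the 676 lower genes, 50 were at least 2-fold lower and 596 were below 0, with a median of -0.41. The median over all genes was -0.01, with 48.9% of them above 0. When both hypoxic arrays (DMSO and titled 10 nM) had to be 2-fold away from both normoxic arrays, 145 genes remained on the higher side (0.787%) and 38 on the lower side (0.206%). Without the 2-fold requirement both hypoxic arrays lay above both normoxic arrays in 271 of the 307 genes and below them in 593 of the 676, beside 28.1% of all genes above and 22.8% below. The DMSO arrays that chose these genes are 2 of those 4. Here and below, both hypoxic arrays are those with DMSO and titled 10 nM. Hypoxia with DMSO was 2-fold above the array titled 10 nM in 38 genes and 2-fold below it in 11. Against the array titled 1 nM these counts were 66 and 41, and against hypoxia with 100 nM 186 and 141. By these counts the array titled 10 nM was the hypoxic array closest to hypoxia with DMSO, so agreement of both is a weak check on the hypoxic side. By the array titled 1 nM over normoxia with 100 nM, 55 of the 307 were 2-fold higher and 289 above 0. Of the 676, 13 were 2-fold lower and 646 below 0. By hypoxia with 100 nM over normoxia with 100 nM, 14 of the 307 were 2-fold higher and 273 above 0. Of the 676, 2 were 2-fold lower and 527 below 0. Over all genes 85 were higher and 31 lower by the first ratio, and 27 and 12 by the second.

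**Figure D2:**
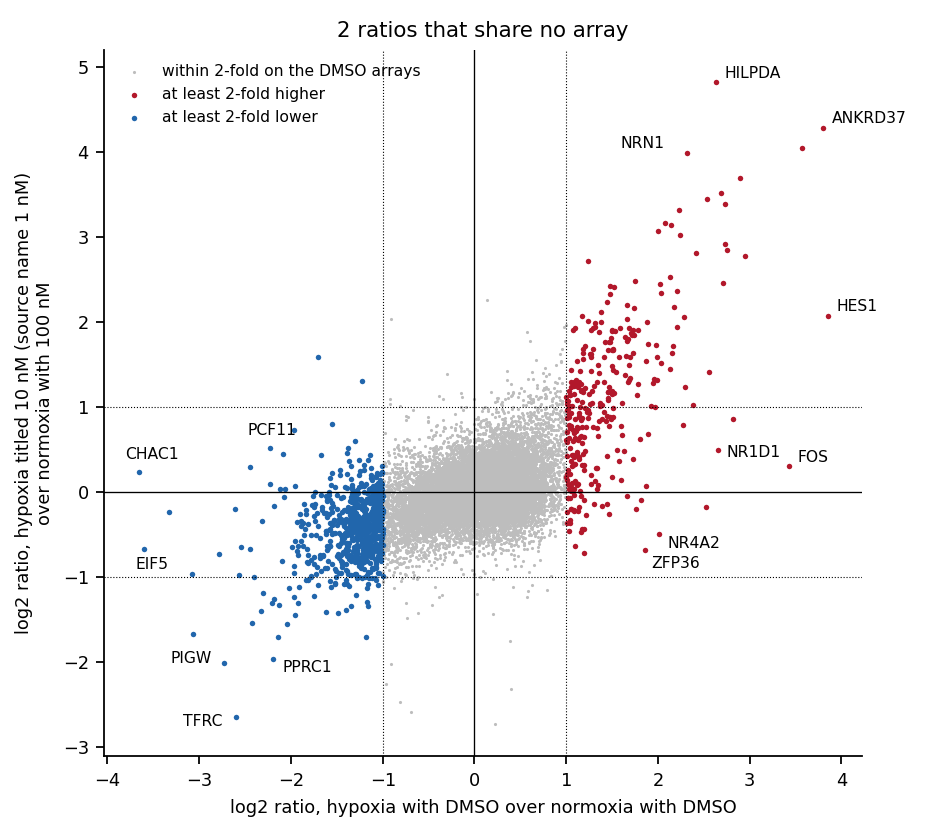
Log2 ratio of hypoxia with DMSO over normoxia with DMSO (horizontal axis) against that of the hypoxic array titled 10 nM (source name 1 nM) over normoxia with 100 nM (vertical axis), 1 point per gene, for 2 ratios without a common array. Dotted lines mark 2-fold. ANKRD37 and HILPDA are past 2-fold on both axes, whereas FOS, NR4A2, CHAC1 and EIF5 are past 2-fold on the horizontal axis only.

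Windows around the transcription start of 6 of these genes are shown because they hold the letters of the HIF element and of the E-box. They cover 250 bases before and 50 bases after the start, from RefSeq (GRCh38.p14). The first 4 are the genes with the largest increase over both normoxic arrays that hold ACGTG, a core of the hypoxia response element, on either strand (capitals; on the other strand the letters read CACGT). They were chosen after the values were seen, and windows on 1 chromosome were not considered.
ANKRD37, chr4:185396591-185396890, plus strand: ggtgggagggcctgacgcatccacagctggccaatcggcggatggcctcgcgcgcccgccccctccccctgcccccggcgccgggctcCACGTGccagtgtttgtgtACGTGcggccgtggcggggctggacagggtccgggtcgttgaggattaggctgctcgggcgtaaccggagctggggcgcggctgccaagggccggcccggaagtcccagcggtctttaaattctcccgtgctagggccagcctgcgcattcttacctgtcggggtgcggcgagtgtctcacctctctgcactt
ANGPTL4, chr19:8363905-8364204, plus strand: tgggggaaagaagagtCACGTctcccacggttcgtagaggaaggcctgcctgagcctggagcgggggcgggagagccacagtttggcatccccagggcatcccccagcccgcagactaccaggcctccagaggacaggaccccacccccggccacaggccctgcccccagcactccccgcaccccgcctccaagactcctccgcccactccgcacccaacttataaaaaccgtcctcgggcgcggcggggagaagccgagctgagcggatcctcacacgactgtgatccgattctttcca
BHLHE41, chr12:26124988-26125287, minus strand: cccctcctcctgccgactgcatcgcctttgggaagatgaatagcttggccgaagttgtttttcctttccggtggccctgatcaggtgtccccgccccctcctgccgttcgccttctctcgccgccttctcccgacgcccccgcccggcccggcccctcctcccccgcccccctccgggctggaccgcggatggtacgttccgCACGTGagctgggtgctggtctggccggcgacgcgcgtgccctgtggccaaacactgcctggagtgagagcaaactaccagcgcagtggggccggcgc
ENO2, chr12:6914330-6914629, plus strand: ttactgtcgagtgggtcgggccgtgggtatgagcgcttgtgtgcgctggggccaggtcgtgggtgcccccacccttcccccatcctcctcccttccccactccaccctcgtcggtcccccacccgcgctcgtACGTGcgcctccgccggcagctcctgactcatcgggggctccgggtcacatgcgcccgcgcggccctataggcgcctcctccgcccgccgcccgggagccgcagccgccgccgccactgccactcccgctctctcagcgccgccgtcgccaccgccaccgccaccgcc

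ANKRD37 holds ACGTG at 3 places, of which a pair overlaps in CACGTG. In BHLHE41 the pair of matches also overlaps in CACGTG, 48 bases before the start. The next 2 windows belong to the genes with the largest decrease below both normoxic arrays that hold CACGTG, the E-box that MYC and its relatives bind (capitals).
PIGW, chr17:36534737-36535036, plus strand: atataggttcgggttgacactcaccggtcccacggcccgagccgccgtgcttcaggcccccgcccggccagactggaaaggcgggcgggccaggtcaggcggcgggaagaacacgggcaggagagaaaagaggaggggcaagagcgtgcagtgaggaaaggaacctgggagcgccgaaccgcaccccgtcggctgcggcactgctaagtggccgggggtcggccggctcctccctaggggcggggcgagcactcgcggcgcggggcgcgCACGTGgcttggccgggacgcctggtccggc
NOL6, chr9:33473875-33474174, minus strand: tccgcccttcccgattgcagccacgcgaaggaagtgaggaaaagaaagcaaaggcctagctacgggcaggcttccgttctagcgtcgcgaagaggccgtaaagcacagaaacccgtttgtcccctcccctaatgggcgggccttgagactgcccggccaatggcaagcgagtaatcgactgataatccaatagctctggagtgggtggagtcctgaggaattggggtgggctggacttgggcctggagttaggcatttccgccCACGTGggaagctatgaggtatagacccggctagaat

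Of 10499 genes with a single window in the table, 24.2% held ACGTG and 44.5% held GCGTG on either strand, and 56.4% held either. Among the 175 such genes at least 2-fold higher in hypoxia, 34.3% held ACGTG and 48.0% GCGTG. Among the 75 that were 2-fold higher on both hypoxic arrays than on both normoxic arrays, 45.3% held ACGTG and 54.7% GCGTG, and among the 25 that were 2-fold lower on both, 48.0% held ACGTG and 56.0% GCGTG. The 443 lower genes held ACGTG in 29.1% and GCGTG in 58.2%. CACGTG, which contains ACGTG on both strands, was present in 8.8% of the 10499 single windows, 15.4% of those of the higher genes and 14.0% of those of the lower genes. It was present in 18.7% of the 75 genes higher on both hypoxic arrays and in 36.0% of the 25 lower on both. These shares are a description of letters in a short window and carry no test.

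Among the transcripts of the HIF system itself, that of HIF-1α was lower rather than higher in hypoxia, by less than 1.5-fold. The transcript of HIF-1α, HIF1A, was at 3872 in hypoxia with DMSO and 4386 on the array titled 10 nM, against 4980.0 in normoxia with DMSO and 5105 in normoxia with 100 nM. Its log2 ratio was -0.36, and both hypoxic values lay below both normoxic ones. EPAS1 (HIF-2α) and ARNT (HIF-1β) had log2 ratios of 0.23 and 0.21, and HIF3A was dim at 86.9 in hypoxia with DMSO and 84.2 in normoxia with DMSO. Of 17 measured genes of HIF subunits and regulators, 1 was 2-fold higher and 1 was 2-fold lower, with a median log2 ratio of 0.04 that was -0.07 with centred arrays. The higher one was CITED2, which competes with HIF for the coactivators p300 and CBP, at 11091 in hypoxia with DMSO and 10818 on the array titled 10 nM, against 2796 in normoxia with DMSO and 4353 in normoxia with 100 nM (log2 ratio 1.99). It was above both normoxic arrays on both hypoxic ones. The lower one was VHL, whose protein directs HIF-α to degradation, at 310.5 in hypoxia with DMSO and 327 on the array titled 10 nM, against 622 in normoxia with DMSO and 307 in normoxia with 100 nM. Only the normoxic DMSO array stood apart for VHL, and against normoxia with 100 nM its log2 ratio was 0.02. CUL2, the cullin of the VHL ubiquitin ligase, had a log2 ratio of -0.73.

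EGLN3 and EGLN1 encode the oxygen-dependent prolyl hydroxylases PHD3 and PHD2 and are themselves known HIF targets. EGLN3 was at 2398 in hypoxia with DMSO and 2238 on the array titled 10 nM, against 1203 in normoxia with DMSO and 572 in normoxia with 100 nM. Its log2 ratio of 0.99 on the DMSO arrays was just short of 2-fold and was 1.97 on the pair without a common array. EGLN1 was at 2654 in hypoxia with DMSO and 2703 on the array titled 10 nM, against 1552 in normoxia with DMSO and 982 in normoxia with 100 nM, with a log2 ratio of 0.77. EGLN2 and the carbonic anhydrase gene CA9 are not reported, since no probe set carried their symbol alone.

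Genes were listed in 9 functional groups that contain known HIF targets, here called HIF target groups. Not every listed gene is itself a known HIF target. Of 128 measured genes in them, 40 were at least 2-fold higher in hypoxia and 2 at least 2-fold lower, beside 1.67% and 3.67% of all genes. The same shares of all genes stand beside the counts of each group below. Their median log2 ratio was 0.53, against 0.08 over all genes, and 109 of the 128 were above 0. On both hypoxic arrays 35 of them were 2-fold above both normoxic arrays. The lower ones were TFRC and PMAIP1. By the ratio without a common array the median of the 128 was 0.51. The 9 groups were drawn up with earlier results of these data known, so their counts are not independent evidence of their direction.

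In the group of glucose transporters and glycolytic enzymes 5 of 19 measured genes were higher by 2-fold and 0 lower, with a median log2 ratio of 0.45, and 18 of the 19 were higher on both hypoxic than on both normoxic arrays, beside 28.1% of all genes. Isoenzymes with a restricted tissue distribution gave the largest ratios. ENO2, the neuronal enolase, was at 4548 in hypoxia with DMSO, 4426 on the array titled 10 nM, 2038 on the array titled 1 nM and 1256 in hypoxia with 100 nM, against 684 in normoxia with DMSO and 424 in normoxia with 100 nM (log2 ratio 2.73). ALDOC, the brain aldolase, was at 7696 in hypoxia with DMSO and 7702 on the array titled 10 nM, against 1706 in normoxia with DMSO and 1701 in normoxia with 100 nM, a 4.51-fold difference. PFKFB4, which makes the activator of phosphofructokinase, was at 1061 in hypoxia with DMSO and 1091 on the array titled 10 nM, against 265 in normoxia with DMSO and 129.6 in normoxia with 100 nM. HK2, the inducible hexokinase, was at 4402 in hypoxia with DMSO and 4276 on the array titled 10 nM, against 1577 in normoxia with DMSO and 1259 in normoxia with 100 nM (log2 ratio 1.48). For these 4 genes the hypoxic and normoxic pairs did not overlap. The glucose transporter gene SLC2A14 was the fifth, at 848 in hypoxia with DMSO and 804 on the array titled 10 nM, against 406 in normoxia with DMSO and 595 in normoxia with 100 nM, so that it lay 2-fold above normoxia with DMSO only. Other genes of the pathway were among the brightest of the array. PGK1 was at 13581 in hypoxia with DMSO and 12004 in normoxia with DMSO (log2 ratio 0.18) and GAPDH at 24913 in hypoxia with DMSO and 24811 in normoxia with DMSO, which was the highest intensity of the hypoxic DMSO array, so that its ratio is not read here. The transporters SLC2A1 and SLC2A3 were at 13555 and 11721 in hypoxia with DMSO, with log2 ratios of 0.52 and 0.75.

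Among 12 measured genes that handle lactate, pyruvate and acid, 2 were higher by 2-fold and 0 lower (median log2 ratio 0.22). Both were pyruvate dehydrogenase kinases, which inhibit pyruvate dehydrogenase and so hold back the oxidation of pyruvate in the mitochondria. PDK4 was at 2416 in hypoxia with DMSO and 2532 on the array titled 10 nM, against 943 in normoxia with DMSO and 963 in normoxia with 100 nM. PDK3 was at 2019 in hypoxia with DMSO and 1934 on the array titled 10 nM, against 892 in normoxia with DMSO and 624 in normoxia with 100 nM. PDK1, the kinase best known as a HIF target, had a log2 ratio of 0.89, and LDHA, the lactate dehydrogenase subunit, one of 0.05 at an intensity of 15740.0 in hypoxia with DMSO. The carbonic anhydrase CA12 had a log2 ratio of 0.52. Of 9 measured glycogen enzymes 3 were higher by 2-fold and 0 lower, with the second highest median of the 9 groups (0.90). They were PPP1R3B and PPP1R3C, which bring protein phosphatase to glycogen, and GYS1, the muscle glycogen synthase. PPP1R3C was the brightest, at 9439.9 in hypoxia with DMSO and 9928 on the array titled 10 nM, against 3894 in normoxia with DMSO and 4378 in normoxia with 100 nM. PPP1R3B had a log2 ratio of 1.38 and GYS1 one of 1.18, and all 3 were also 2-fold above normoxia with 100 nM. PGM1, which links glycogen to glycolysis, had a log2 ratio of 0.94.

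Secreted factors held some of the largest increases. Of 19 measured genes for secreted angiogenic and vasoactive factors 6 were higher by 2-fold and 0 lower (median log2 ratio 0.57), and the same 6 genes were 2-fold higher on both hypoxic than on both normoxic arrays. ADM, the precursor of the vasodilator adrenomedullin, was at 5686 in hypoxia with DMSO, 5816 on the array titled 10 nM, 3363 on the array titled 1 nM and 539 in hypoxia with 100 nM, against 479 in normoxia with DMSO and 351 in normoxia with 100 nM, an 11.9-fold difference on the DMSO arrays. ANGPTL4, an inhibitor of lipoprotein lipase, was at 6763 in hypoxia with DMSO, 6615 on the array titled 10 nM, 4548 on the array titled 1 nM and 2088 in hypoxia with 100 nM, against 911 in normoxia with DMSO and 511 in normoxia with 100 nM (log2 ratio 2.89). All 4 hypoxic arrays lay above both normoxic arrays for it. PDGFA, a chain of platelet-derived growth factor, was at 4201 in hypoxia with DMSO and 4093 on the array titled 10 nM, against 542 in normoxia with DMSO and 597 in normoxia with 100 nM, and the normoxic arrays lay close together. STC1, the glycoprotein stanniocalcin, had a log2 ratio of 2.14. FGF11 was counted in this list as a member of the fibroblast growth factor family, although its protein stays in the cell. It was at 684 in hypoxia with DMSO and 713 on the array titled 10 nM, against 157 in normoxia with DMSO and 123 in normoxia with 100 nM. VEGFA, the main growth factor for blood vessels, was at 1999.5 in hypoxia with DMSO and 1858 on the array titled 10 nM, against 1342 in normoxia with DMSO and 505 in normoxia with 100 nM. Its log2 ratio was 0.58 on the DMSO arrays and 1.88 on the pair without a common array, so that the normoxic arrays differed more from each other than normoxia with DMSO did from hypoxia. STC2 showed the same in stronger form, at 1204 in hypoxia with DMSO and 1384 on the array titled 10 nM, against 1094 in normoxia with DMSO and 289.5 in normoxia with 100 nM.

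Of 15 measured receptors and surface proteins 6 were at least 2-fold higher and 1 lower (median log2 ratio 0.66). The median was 0.42 against normoxia with 100 nM and 0.29 on the pair without a common array, and 4 of the 6 were 2-fold above both normoxic arrays on both hypoxic arrays. EFNA1 and EFNA3 encode ephrins, membrane-anchored ligands of Eph receptors. EFNA1 was at 2427 in hypoxia with DMSO and 2642 on the array titled 10 nM, against 419 in normoxia with DMSO and 242 in normoxia with 100 nM. EFNA3 was at 2926 in hypoxia with DMSO and 2968 on the array titled 10 nM, against 549 in normoxia with DMSO and 423 in normoxia with 100 nM. NRN1, a membrane-anchored protein known from growing neurites, was at 2970.4 in hypoxia with DMSO and 2636 on the array titled 10 nM, against 597 in normoxia with DMSO and 166 in normoxia with 100 nM. Its values in the 2 normoxic cultures differed by more than 3-fold, and both lay far below the hypoxic pair. The chemokine receptor gene CXCR4 passed 2-fold as a dim gene, at 107 in hypoxia with DMSO and 49.5 in normoxia with DMSO. Outside these groups, UPK1A, a surface protein of the bladder epithelium, was at 602 in hypoxia with DMSO and 433 on the array titled 10 nM, against 92.3 in normoxia with DMSO and 79 in normoxia with 100 nM. ITGB4, the integrin subunit of hemidesmosomes, was at 1143 in hypoxia with DMSO and 982 on the array titled 10 nM, against 287 in normoxia with DMSO and 326 in normoxia with 100 nM (log2 ratios 2.71 and 1.99).

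**Figure D3:**
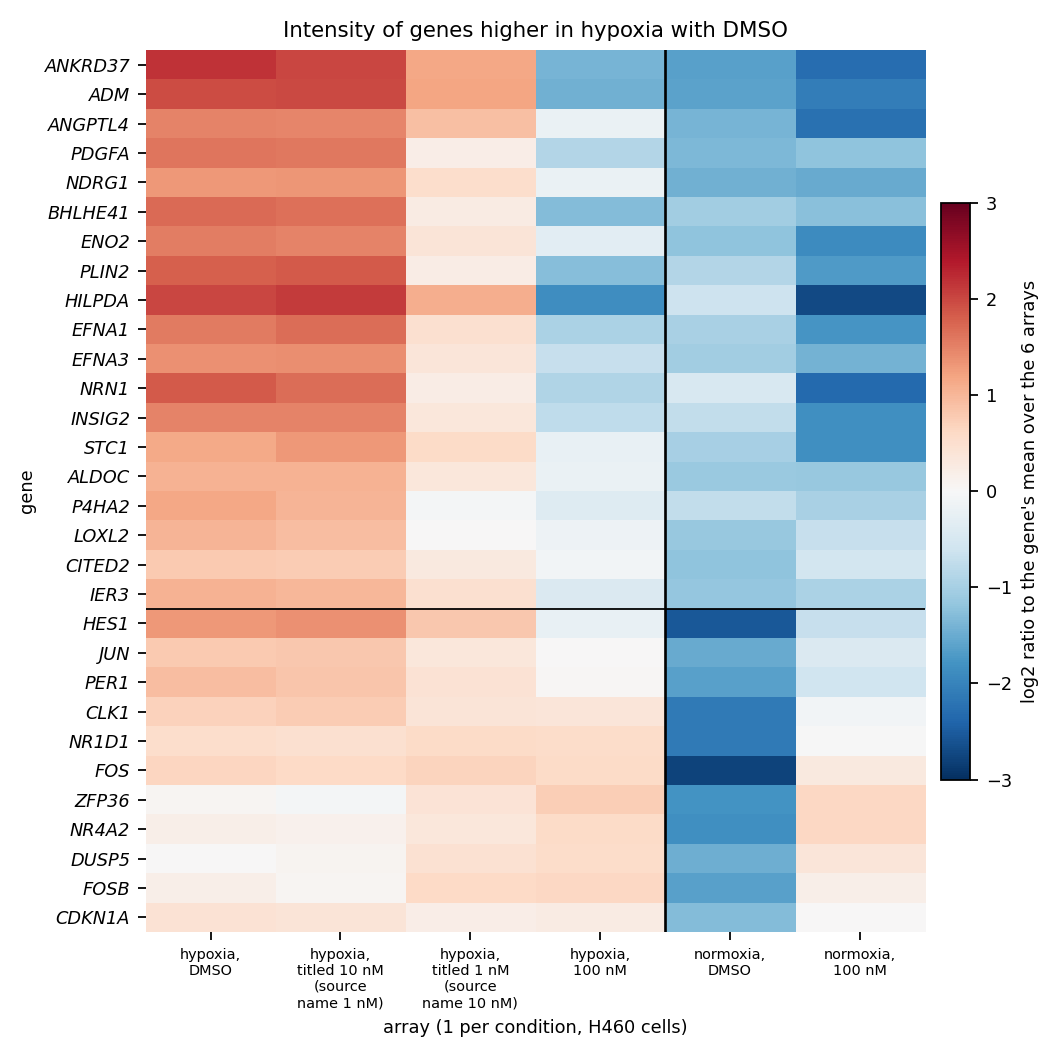
Intensity of 30 genes (rows) on the 6 H460 arrays (columns, 1 per condition), as the log2 ratio to the gene's mean log2 intensity over the 6 arrays. Genes in the lower block had normoxia with 100 nM at least 2-fold above normoxia with DMSO; in the upper block both normoxic arrays are low, and the hypoxic arrays with DMSO or titled 10 nM are high.

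Among further genes high on both hypoxic arrays, TCP11L2, a protein of little known role, was at 1603 in hypoxia with DMSO and 1685 on the array titled 10 nM, against 339 in normoxia with DMSO and 207 in normoxia with 100 nM. PPP2R5B, a regulatory subunit of protein phosphatase 2A, was at 1247 in hypoxia with DMSO and 1058 on the array titled 10 nM, against 269 in normoxia with DMSO and 205 in normoxia with 100 nM. SNX33, a sorting nexin of the membrane traffic, and RAB3A, a GTPase of secretory vesicles, had log2 ratios of 2.29 and 2.17, and 2.06 and 1.72 on the pair without a common array.

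All 15 measured genes for collagens and the enzymes that modify them had a log2 ratio above 0 (0.17 to 2.16, median 0.41), beside 57.4% of all genes, and 4 were at least 2-fold higher. The median was 0.17 against normoxia with 100 nM and 0.18 on the pair without a common array, whereas the same 4 genes were 2-fold higher on both hypoxic than on both normoxic arrays. LOXL2, an oxidase that cross-links collagen, was at 2148 in hypoxia with DMSO and 2017 on the array titled 10 nM, against 482 in normoxia with DMSO and 650.5 in normoxia with 100 nM. P4HA2, a collagen prolyl hydroxylase subunit, was at 3625 in hypoxia with DMSO and 3286 on the array titled 10 nM, against 982 in normoxia with DMSO and 824 in normoxia with 100 nM. PLOD2, a collagen lysyl hydroxylase, was at 3939.6 in hypoxia with DMSO and 4416 on the array titled 10 nM, against 1393 in normoxia with DMSO and 1385 in normoxia with 100 nM. LOX was dim throughout, at 102 in hypoxia with DMSO and 38.4 in normoxia with DMSO. The other prolyl hydroxylase subunit gene, P4HA1, had a log2 ratio of 0.96. Among 12 measured genes of mitophagy, cell death and stress 5 were at least 2-fold higher and 1 lower (median log2 ratio 0.77). ANKRD37, an ankyrin repeat protein, was at 2995 in hypoxia with DMSO, 2673 on the array titled 10 nM, 1499 on the array titled 1 nM and 255 in hypoxia with 100 nM, against 216 in normoxia with DMSO and 137 in normoxia with 100 nM (log2 ratio 3.79), and among all genes only HES1 had a larger ratio. NDRG1, a stress-induced protein of the N-myc downstream regulated family, was at 7207 in hypoxia with DMSO and 7348 on the array titled 10 nM, against 1070.1 in normoxia with DMSO and 1023 in normoxia with 100 nM. BNIP3L, a receptor that marks mitochondria for removal, was at 8462 in hypoxia with DMSO and 8291 on the array titled 10 nM, against 3663 in normoxia with DMSO and 2524 in normoxia with 100 nM, and its relative BNIP3 had a log2 ratio of 0.63 on the DMSO arrays and 1.07 on the pair without a common array. FAM162A, a mitochondrial protein, and RORA, a nuclear receptor, had log2 ratios of 1.31 and 1.39. The lower gene was PMAIP1, which encodes the cell death protein NOXA, at 243 in hypoxia with DMSO and 333 on the array titled 10 nM, against 1285 in normoxia with DMSO and 669 in normoxia with 100 nM.

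Lipid storage showed 2 large increases in a list that otherwise stayed within 2-fold (14 measured, 2 higher, 0 lower, median log2 ratio 0.19). HILPDA, which blocks triglyceride breakdown at the lipid droplet, was at 6976 in hypoxia with DMSO, 7451 on the array titled 10 nM, 3665 on the array titled 1 nM and 474 in hypoxia with 100 nM, against 1127 in normoxia with DMSO and 264 in normoxia with 100 nM. The droplet coat protein gene PLIN2 was at 2366 in hypoxia with DMSO, 2412 on the array titled 10 nM, 793 on the array titled 1 nM and 279 in hypoxia with 100 nM, against 368 in normoxia with DMSO and 210.1 in normoxia with 100 nM. Their log2 ratios of 2.63 and 2.69 on the DMSO arrays were 4.82 and 3.52 on the pair without a common array. VLDLR, a lipoprotein receptor, had a log2 ratio of 0.98. INSIG2, an endoplasmic reticulum protein that holds back sterol synthesis, was at 1503 in hypoxia with DMSO and 1494 on the array titled 10 nM, against 322 in normoxia with DMSO and 150.0 in normoxia with 100 nM. In the list of sterol and fatty acid synthesis, to which it belongs, 2 of 18 measured genes were at least 2-fold higher and 1 lower. The lower one was ELOVL6, an elongase of fatty acids, at 270.2 in hypoxia with DMSO and 451 on the array titled 10 nM, against 1331 in normoxia with DMSO and 1032 in normoxia with 100 nM.

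The highest median of the 9 groups, 1.03, belonged to the transcriptional repressors and MYC antagonists. All 13 measured genes had a log2 ratio above 0, and 7 were at least 2-fold higher. HES1, the repressor that acts downstream of Notch, had the largest ratio of all genes (log2 ratio 3.85). It was at 5000.0 in hypoxia with DMSO, 5240.1 on the array titled 10 nM, 3558 on the array titled 1 nM and 1738 in hypoxia with 100 nM, against 347 in normoxia with DMSO and 1247 in normoxia with 100 nM. Every hypoxic array lay above both normoxic arrays, and the normoxic arrays differed from each other by more than 3-fold. BHLHE41 (DEC2), a repressor of the circadian clock, was at 2195 in hypoxia with DMSO and 2146 on the array titled 10 nM, against 329.6 in normoxia with DMSO and 284 in normoxia with 100 nM. Its relative BHLHE40 (DEC1) was at 7884 in hypoxia with DMSO and 7619 on the array titled 10 nM, against 3871 in normoxia with DMSO and 4424 in normoxia with 100 nM. MXI1, which competes with MYC for its partner MAX, was at 1459.6 in hypoxia with DMSO and 1498 on the array titled 10 nM, against 515 in normoxia with DMSO and 401 in normoxia with 100 nM. FOXN3, a forkhead repressor, was at 1504 in hypoxia with DMSO and 1375 on the array titled 10 nM, against 532 in normoxia with DMSO and 371 in normoxia with 100 nM. ZNF395 and MXD1 had log2 ratios of 1.31 and 1.39. MYC itself was at 4964 in hypoxia with DMSO and 5418 on the array titled 10 nM, against 5878 in normoxia with DMSO and 6058 in normoxia with 100 nM (log2 ratio -0.24).

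The histone demethylases and related dioxygenases, which also need oxygen, were listed apart from the 9 groups. Of 18 measured genes 5 were higher by 2-fold and 0 lower (median log2 ratio 0.59). KDM3A, a demethylase of histone H3, was at 1562 in hypoxia with DMSO and 1721 on the array titled 10 nM, against 537 in normoxia with DMSO and 649.7 in normoxia with 100 nM. JMJD6, a lysyl hydroxylase of splicing factors, was at 2112 in hypoxia with DMSO and 2133 on the array titled 10 nM, against 745 in normoxia with DMSO and 941 in normoxia with 100 nM. KDM5B and KDM7A had log2 ratios of 1.24 and 1.17, which were 0.996 and 0.62 against normoxia with 100 nM. KDM4B had one of 0.99, just under 2-fold. On both hypoxic arrays 3 of the 5 higher genes were 2-fold above both normoxic arrays. COXFA4L2 (NDUFA4L2), the only one of 27 measured genes of complexes II to V past 2-fold, was at 956 in hypoxia with DMSO and 832 on the array titled 10 nM, against 303 in normoxia with DMSO and 274 in normoxia with 100 nM. Of 12 measured metallothionein and metal handling genes 2 were at least 2-fold higher, MT1X with a log2 ratio of 1.96 and MT1F with 1.26, and TFRC was lower. The shares over all genes were 1.67% higher and 3.67% lower.

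Some of the largest increases were far smaller against the other normoxic array, whose cells had received 100 nM of the compound. FOS, a subunit of the transcription factor AP-1, was at 2803 in hypoxia with DMSO, 2699 on the array titled 10 nM, 2851 on the array titled 1 nM and 2646 in hypoxia with 100 nM, against 261 in normoxia with DMSO and 2192 in normoxia with 100 nM. The normoxic DMSO array was the low one, and the log2 ratio of 3.43 became 0.35 against normoxia with 100 nM. NR1D1 (REV-ERBα), a clock repressor, was at 3124 in hypoxia with DMSO, 3043 on the array titled 10 nM, 3220.5 on the array titled 1 nM and 3187 in hypoxia with 100 nM, against 496 in normoxia with DMSO and 2171 in normoxia with 100 nM. CLK1, a kinase of splicing factors, was at 2073 in hypoxia with DMSO and 2179 on the array titled 10 nM, against 294 in normoxia with DMSO and 1207 in normoxia with 100 nM. Of 18 measured immediate early and AP-1 genes 7 exceeded normoxia with DMSO by 2-fold and 0 were lower (median log2 ratio 0.73). Of these 7, 5 lay within 1.5-fold of normoxia with 100 nM, and the median of the list against that array was -0.08. IER3 and JUN were the 2 exceptions, with 11314 and 748 in hypoxia with DMSO, against 2449.6 and 152 in normoxia with DMSO and 2844 and 325 in normoxia with 100 nM.

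Other genes had the same pattern as FOS. ZFP36, which speeds the decay of cytokine transcripts, was at 2532 in hypoxia with DMSO, against 700.2 in normoxia with DMSO and 3735 in normoxia with 100 nM. NR4A2, an orphan nuclear receptor, was at 5940.5 in hypoxia with DMSO, against 1473 in normoxia with DMSO and 8038 in normoxia with 100 nM. DUSP5, a phosphatase of ERK, was at 5127 in hypoxia with DMSO, against 1861 in normoxia with DMSO and 6555 in normoxia with 100 nM. For these 3 genes hypoxia lay between the normoxic arrays. FOSB (log2 ratio 1.81), the cyclin-dependent kinase inhibitor gene CDKN1A (1.72), the histone gene H2BC21 (1.76, the only one of 17 measured histone genes past 2-fold) and the chaperone gene DNAJB9 (1.55) had log2 ratios to normoxia with 100 nM of 0.02, 0.42, -0.04 and -0.01. PER1, a core clock gene, kept part of its difference against normoxia with 100 nM. It was at 2155 in hypoxia with DMSO and 2002 on the array titled 10 nM, against 366 in normoxia with DMSO and 754 in normoxia with 100 nM. Of 12 measured ERK feedback genes 4 were at least 2-fold higher and 1 lower, but only SPRY1 was 2-fold higher than on both normoxic arrays, at 608 in hypoxia with DMSO and 559.5 on the array titled 10 nM, against 214 in normoxia with DMSO and 174 in normoxia with 100 nM.

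Many of the lower genes serve the production of ribosomes. Of 43 measured genes of ribosome biogenesis and the nucleolus 21 were at least 2-fold lower in hypoxia and 0 higher, beside 3.67% of all genes, and 42 were below 0. Their median log2 ratio was -0.96, and it was -0.97 against normoxia with 100 nM and -0.71 on the pair without a common array. Both hypoxic arrays lay below both normoxic arrays in 40 of the 43, beside 22.8% of all genes, and by 2-fold in 9. This list was drawn up with the decreases already known, so its count is not independent evidence of its direction.

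URB2, a factor of large subunit assembly, was at 170.2 in hypoxia with DMSO, 201 on the array titled 10 nM, 366 on the array titled 1 nM and 426 in hypoxia with 100 nM, against 911 in normoxia with DMSO and 586 in normoxia with 100 nM (log2 ratio -2.42). RRS1, which is needed for the assembly of the large subunit, was at 242 in hypoxia with DMSO and 272 on the array titled 10 nM, against 1070.4 in normoxia with DMSO and 888 in normoxia with 100 nM. MAK16, a nucleolar factor, was at 307 in hypoxia with DMSO and 493 on the array titled 10 nM, against 1539.7 in normoxia with DMSO and 1298 in normoxia with 100 nM. UTP15, part of the complex that processes small subunit RNA, was at 281 in hypoxia with DMSO and 457 on the array titled 10 nM, against 1297 in normoxia with DMSO and 1130.1 in normoxia with 100 nM. NOP16, another nucleolar factor, was at 123 in hypoxia with DMSO and 218 on the array titled 10 nM, against 558 in normoxia with DMSO and 522 in normoxia with 100 nM. For these the array titled 10 nM lay between hypoxia with DMSO and the normoxic arrays, nearer to hypoxia. NOL6, whose promoter window is printed above, was at 311 in hypoxia with DMSO and 329 on the array titled 10 nM, against 873 in normoxia with DMSO and 885 in normoxia with 100 nM. POLR1B, the second largest subunit of RNA polymerase I, was at 537 in hypoxia with DMSO and 694 on the array titled 10 nM, against 1921 in normoxia with DMSO and 1430.2 in normoxia with 100 nM (log2 ratio -1.84). The abundant nucleolar proteins differed less, with log2 ratios of -0.54 for NCL (nucleolin), -0.23 for NPM1 (nucleophosmin) and 0.03 for FBL (fibrillarin).

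Genes of the ribosomal proteins themselves differed less. Of 35 measured cytosolic ribosomal protein genes 0 passed 2-fold in either direction, with a median log2 ratio of 0.04 that was -0.08 with centred arrays and a range of -0.65 (RPL23) to 0.28 (RPL11). Of 44 measured mitochondrial ribosomal protein genes 3 were at least 2-fold lower and 0 higher (median -0.33), and both hypoxic arrays lay below both normoxic arrays in 35, beside 22.8% of all genes, but by 2-fold in 0. MRPS23, MRPL15 and MRPL46 were the 3, with log2 ratios of -1.57, -1.34 and -1.28. Against normoxia with 100 nM that of MRPL46 was -0.45. MRPL15 was at 435 in hypoxia with DMSO and 578 on the array titled 10 nM, against 1102 in normoxia with DMSO and 1142 in normoxia with 100 nM.

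TFRC, the transferrin receptor that brings iron into the cell, is both a HIF target and a gene whose transcript iron regulates. It was at 1028 in hypoxia with DMSO, 1056 on the array titled 10 nM, 2405 on the array titled 1 nM and 3841 in hypoxia with 100 nM, against 6222 in normoxia with DMSO and 6633 in normoxia with 100 nM, a log2 ratio of -2.60, and the 2 normoxic arrays lay close together. PIGW, an enzyme of glycosylphosphatidylinositol anchor synthesis, was at 173 in hypoxia with DMSO, 263 on the array titled 10 nM, 564 on the array titled 1 nM and 903 in hypoxia with 100 nM, against 1146 in normoxia with DMSO and 1067 in normoxia with 100 nM (log2 ratio -2.73). PPRC1, a coactivator for genes of mitochondrial biogenesis, was at 222 in hypoxia with DMSO and 259.5 on the array titled 10 nM, against 1016 in normoxia with DMSO and 1016 in normoxia with 100 nM. ODC1, the first enzyme of polyamine synthesis and the one gene of 18 measured MYC targets past 2-fold (median of the list -0.27), was at 2202 in hypoxia with DMSO and 2328 on the array titled 10 nM, against 8582 in normoxia with DMSO and 5504 in normoxia with 100 nM. AMD1, which makes the aminopropyl donor of that pathway, was at 402 in hypoxia with DMSO and 512 on the array titled 10 nM, against 1631 in normoxia with DMSO and 1125 in normoxia with 100 nM. UMPS, which completes uridine monophosphate synthesis, was the only one of 23 measured genes of nucleotide and folate synthesis past 2-fold (median of that list -0.37). It was at 337 in hypoxia with DMSO and 338 on the array titled 10 nM, against 1005 in normoxia with DMSO and 699.5 in normoxia with 100 nM. As 3.67% of all genes were 2-fold lower, 1 such gene in the MYC or nucleotide list is close to the bulk. Smaller decreases were common in both lists. In the MYC list 16 of 18 genes were below 0 and in the nucleotide list 20 of 23, whereas 57.4% of all genes were above 0. Both hypoxic arrays lay below both normoxic arrays in 15 and 14 of them, beside 22.8% of all genes. NMRAL2P, a pseudogene, was at 398 in hypoxia with DMSO and 421 on the array titled 10 nM, against 3346 in normoxia with DMSO and 1342 in normoxia with 100 nM.

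**Figure D4:**
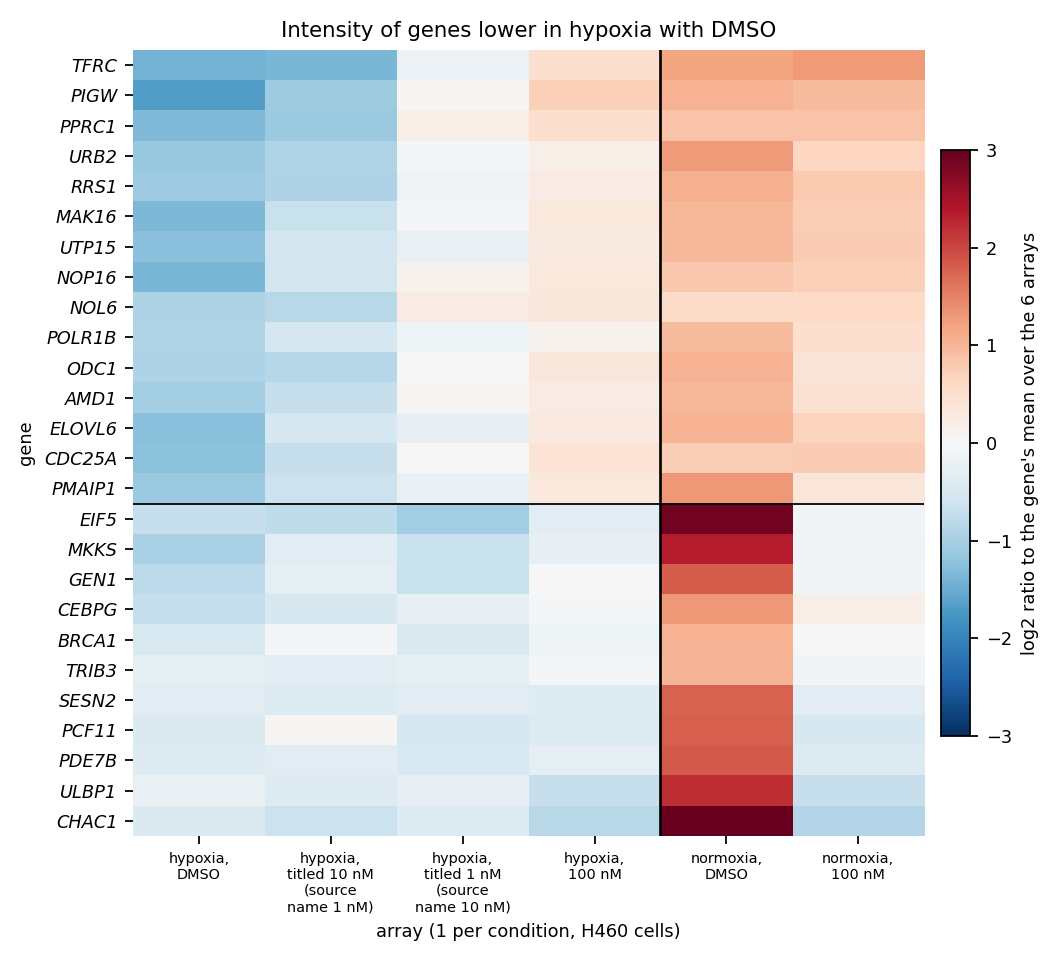
Intensity of 26 genes (rows) on the 6 H460 arrays (columns, 1 per condition), as the log2 ratio to the gene's mean log2 intensity over the 6 arrays. Genes in the lower block had normoxia with DMSO at least 2-fold above normoxia with 100 nM; in the upper block both normoxic arrays are high and hypoxia with DMSO is the lowest or nearly the lowest array.

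Genes of DNA synthesis were lower by smaller steps. Of 32 measured genes of the G1/S transition and DNA replication 6 were at least 2-fold lower and 0 higher (median log2 ratio -0.59), and 26 were lower on both hypoxic than on both normoxic arrays, beside 22.8% of all genes. By 2-fold 1 of them was, and the median of the list was -0.38 against normoxia with 100 nM and -0.28 on the pair without a common array. CDC25A, the phosphatase that opens the way into S phase, was at 161 in hypoxia with DMSO and 233 on the array titled 10 nM, against 624 in normoxia with DMSO and 638 in normoxia with 100 nM (log2 ratio -1.96). CDC6, a licensing factor, was at 807 in hypoxia with DMSO and 1022 on the array titled 10 nM, against 1817 in normoxia with DMSO and 1699.7 in normoxia with 100 nM. MCM10 and GINS3, both parts of the replication machinery, had log2 ratios of -1.20 and -1.21. Of 27 measured genes of G2/M and mitosis 26 were below 0 (median -0.26, and -0.05 on the pair without a common array). In 13 of the 27 both hypoxic arrays lay below both normoxic arrays. Only 1 was at least 2-fold lower, close to the 3.67% of all genes. It was CENPE, a kinetochore motor, at 303 in hypoxia with DMSO and 417 on the array titled 10 nM, against 799 in normoxia with DMSO and 484 in normoxia with 100 nM. All 14 measured DNA repair genes were below 0 and 5 were at least 2-fold lower (median -0.61). Against normoxia with 100 nM the median was -0.30, on the pair without a common array it was -0.14, and 0 of the 14 were 2-fold below both normoxic arrays on both hypoxic arrays. XRCC2, EXO1 and BLM had log2 ratios of -1.61, -1.39 and -1.48. BRCA1 was at 329 in hypoxia with DMSO and 438 on the array titled 10 nM, against 931 in normoxia with DMSO and 449 in normoxia with 100 nM, so that only the normoxic DMSO array stood apart.

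Of 17 measured targets of the oxidative stress factor NRF2 4 were at least 2-fold lower and 0 higher (median log2 ratio -0.25). None of the 17 was 2-fold below both normoxic arrays on both hypoxic arrays, and 0 were 2-fold lower on the pair without a common array. SRXN1, which repairs oxidised peroxiredoxins, was at 2538 in hypoxia with DMSO and 3003 on the array titled 10 nM, against 7217 in normoxia with DMSO and 5747 in normoxia with 100 nM. GCLM and GCLC, the subunits of the enzyme that starts glutathione synthesis, had log2 ratios of -1.09 and -1.08, and SLC7A11, the cystine transporter, one of -1.28. Of 16 measured p53 targets TIGAR was at least 2-fold lower (-1.36) and CDKN1A, described above, higher. DNAJA1, a co-chaperone, was the only one of 16 measured chaperone genes past 2-fold. It was at 269 in hypoxia with DMSO and 355 on the array titled 10 nM, against 685 in normoxia with DMSO and 898 in normoxia with 100 nM. Over all genes 3.67% were 2-fold lower and 1.67% higher.

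Some of the largest decreases were far smaller, or turned round, against the other normoxic array, whose cells had received 100 nM of the compound. CHAC1, which degrades glutathione and is a target of the stress factor ATF4, was at 167 in hypoxia with DMSO, 145 on the array titled 10 nM, 173 on the array titled 1 nM and 127 in hypoxia with 100 nM, against 2107 in normoxia with DMSO and 123 in normoxia with 100 nM. It had a log2 ratio of -3.66 to normoxia with DMSO and 0.44 to normoxia with 100 nM, and the normoxic DMSO array was the only one that stood apart. EIF5, a translation initiation factor, was at 290.4 in hypoxia with DMSO, 280.0 on the array titled 10 nM, 230.1 on the array titled 1 nM and 378 in hypoxia with 100 nM, against 3519 in normoxia with DMSO and 447 in normoxia with 100 nM (log2 ratio -3.60). MKKS, a chaperonin-like protein, was at 58.8 in hypoxia with DMSO and 91.8 on the array titled 10 nM, against 589.5 in normoxia with DMSO and 108 in normoxia with 100 nM. GEN1, a resolvase of DNA junctions, was at 135 in hypoxia with DMSO and 191 on the array titled 10 nM, against 826 in normoxia with DMSO and 219 in normoxia with 100 nM. ULBP1, a ligand of a receptor of natural killer cells, was at 233 in hypoxia with DMSO, against 1275 in normoxia with DMSO and 170.3 in normoxia with 100 nM. SESN2, a stress-induced inhibitor of growth signalling, was at 284 in hypoxia with DMSO, against 1196 in normoxia with DMSO and 279 in normoxia with 100 nM. PDE7B (log2 ratio -2.23), a phosphodiesterase, PCF11 (-2.23), a factor that ends transcription, and the ERK inhibitor SPRED2 (-1.39) were within 1.5-fold of normoxia with 100 nM. TRPM7, an ion channel with a kinase domain, was at 196 in hypoxia with DMSO, against 978 in normoxia with DMSO and 325 in normoxia with 100 nM.

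The list of amino acid supply and ATF4 targets contained several of these genes. Of 27 measured genes 11 were at least 2-fold lower than in normoxia with DMSO and 0 higher (median log2 ratio -0.70). None of the 27 was 2-fold lower on both hypoxic than on both normoxic arrays, 6 of the 11 lay within 1.5-fold of normoxia with 100 nM, and the median against that array was -0.22. TRIB3, a pseudokinase, was at 1121 in hypoxia with DMSO and 1096 on the array titled 10 nM, against 2821 in normoxia with DMSO and 1309.8 in normoxia with 100 nM. PSAT1, an enzyme of serine synthesis, was at 1169.8 in hypoxia with DMSO and 1345 on the array titled 10 nM, against 4119 in normoxia with DMSO and 2252 in normoxia with 100 nM. CEBPG, a transcription factor, was at 248 in hypoxia with DMSO and 289 on the array titled 10 nM, against 985 in normoxia with DMSO and 453 in normoxia with 100 nM, so that hypoxia lay below both normoxic arrays for these. SLC1A5, the glutamine transporter, was at 1698 in hypoxia with DMSO and 1733 on the array titled 10 nM, against 4441 in normoxia with DMSO and 2927 in normoxia with 100 nM.

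**Figure D5:**
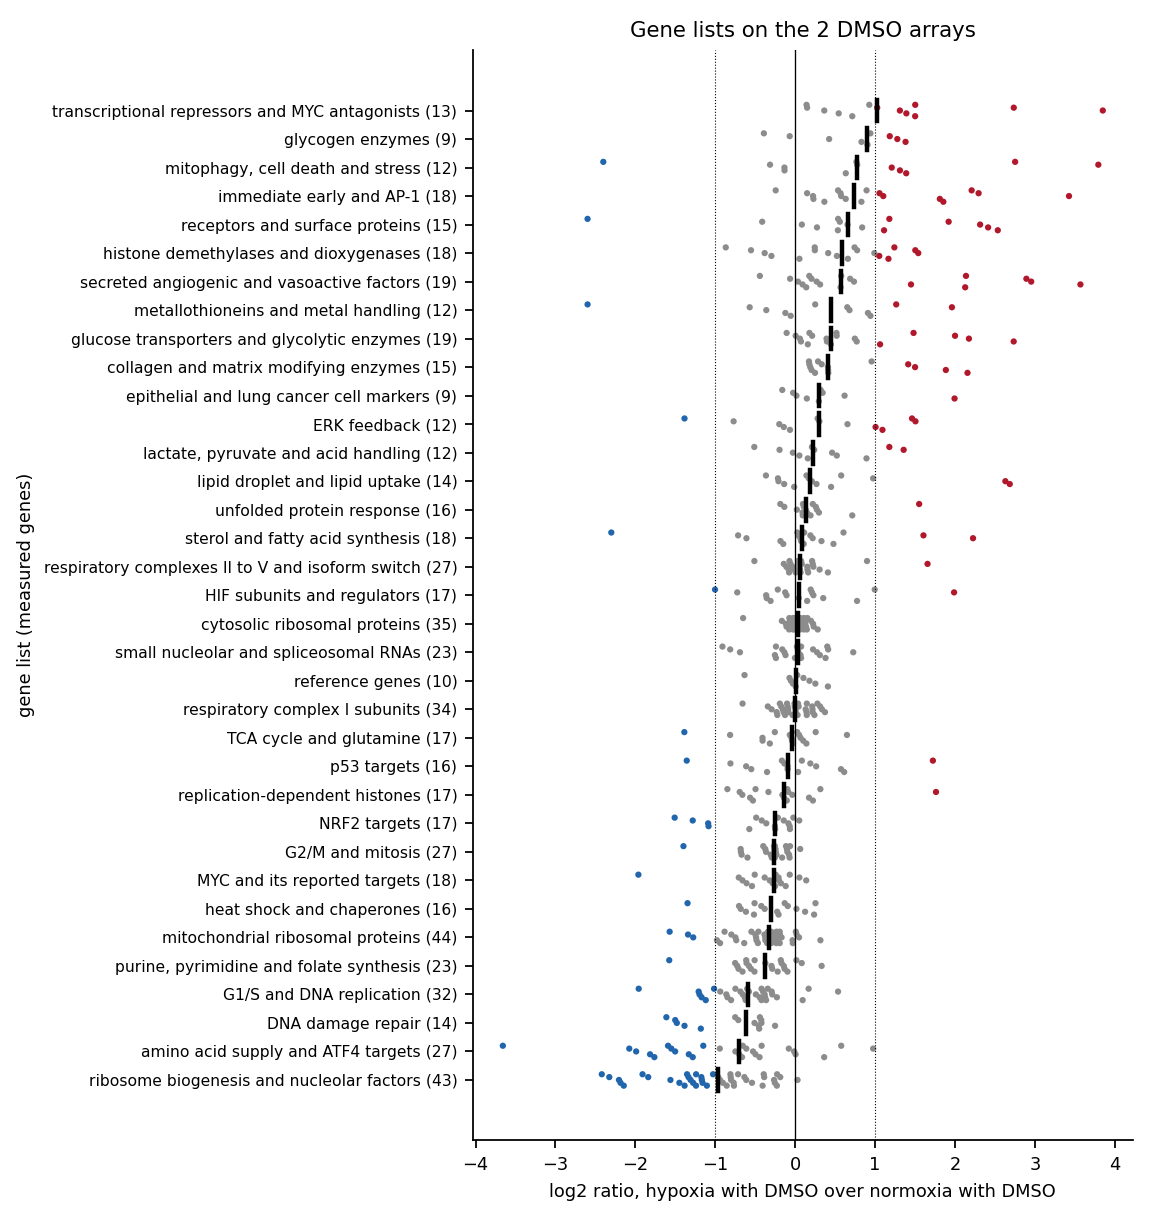
Log2 ratio of hypoxia with DMSO over normoxia with DMSO for the measured genes of 35 gene lists (number of genes in brackets), 1 point per gene with the list median as a black bar, ordered by median. Red and blue points are at least 2-fold higher and lower (dotted lines); transcriptional repressors are at the top with a median of 1.03 and ribosome biogenesis genes at the bottom with -0.96.

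Several lists had few or no genes past 2-fold on the DMSO arrays. Over all genes only 1.67% were 2-fold higher and 3.67% lower, so few or none in a short list is close to the bulk. The 34 measured subunits of respiratory complex I had 0 genes past 2-fold in either direction and a median log2 ratio of 0.00, which was 0.11 after quantile normalization and -0.11 with centred arrays. The lowest was NDUFB6, at 332 in hypoxia with DMSO and 555 on the array titled 10 nM, against 524 in normoxia with DMSO and 627 in normoxia with 100 nM. Of 17 measured genes of the TCA cycle and glutamine use only SLC1A5 passed 2-fold (median -0.04, and 0.06 after quantile normalization). Of 16 measured genes of the unfolded protein response only DNAJB9 did so, and 0 of 16 interferon-stimulated genes. Among the 23 measured small nucleolar and spliceosomal RNAs that were listed 0 passed 2-fold on the DMSO arrays, whereas 5 were 2-fold lower on the pair without a common array, beside 0.44% of all genes. SNORD14E, SNORD14C and RNU4-2 had log2 ratios of -2.83, -2.51 and -3.17 against normoxia with 100 nM. SNORD14C was at 583 in hypoxia with DMSO, 816 on the array titled 10 nM, 2305 on the array titled 1 nM and 3234 in hypoxia with 100 nM, against 1096 in normoxia with DMSO and 3315 in normoxia with 100 nM, so that the normoxic arrays differed from each other by more than 3-fold. Of 10 measured reference genes 0 passed 2-fold (median 0.02, and -0.10 with centred arrays). GATA4 and FOXO3, a pair of transcription factors, had log2 ratios of 0.41 and 0.14. ACTB, the actin used as a control, was at 13440.2 in hypoxia with DMSO and 13705 in normoxia with DMSO, and B2M at 3113 in hypoxia with DMSO and 2898 in normoxia with DMSO. TBP, a general transcription factor, was the reference gene that differed most, at 1336 in hypoxia with DMSO and 1388 on the array titled 10 nM, against 2073 in normoxia with DMSO and 1554 in normoxia with 100 nM.

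Of 9 measured markers of epithelial tumour cells, 7 were above the array median on both arrays. The keratins KRT8, KRT18 and KRT19, the filament proteins of such cells, were bright, at 10272, 8273 and 11774 in hypoxia with DMSO and 11489, 8425 and 9279.9 in normoxia with DMSO. The remaining markers, EPCAM and CDH1 (the E-cadherin gene), were dim on both. EPCAM was at 64.5 in hypoxia with DMSO and 63.8 in normoxia with DMSO, and CDH1 at 45.8 in hypoxia with DMSO and 29.8 in normoxia with DMSO. The lung lineage genes NKX2-1 and SFTPB were also dim, and SCGB1A1 passed 2-fold only as a dim gene, at 95.3 in hypoxia with DMSO and 47.1 in normoxia with DMSO. PTPRC, which marks blood cells, was at 19.2 in hypoxia with DMSO and 15.8 in normoxia with DMSO, and PECAM1, which marks endothelium, at 48.2 in hypoxia with DMSO and 34.1 in normoxia with DMSO. CD68, a marker of macrophages that other cells also express, was at 4763 in hypoxia with DMSO and 3157 in normoxia with DMSO. Of 8 endothelial markers 0 reached the array median on either array, of 7 blood cell markers 2 did on both, and of 8 fibroblast markers 6 did on both, among them COL1A1 at 381 in hypoxia with DMSO and 282 in normoxia with DMSO. None of the endothelial, blood cell or fibroblast markers was past 2-fold. The summed intensity of the endothelial markers was 405.9 in hypoxia with DMSO and 361.5 in normoxia with DMSO, that of the blood cell markers 5322 in hypoxia and 3692 in normoxia, and that of the fibroblast markers 2174 in hypoxia and 2003 in normoxia. Their part in the results was not tested.

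The 2-fold rule divides genes that hardly differ. AFAP1L1 was just inside it on the higher side at 270.3 in hypoxia with DMSO and 135 in normoxia with DMSO, and LEKR1 just outside at 41.7 in hypoxia with DMSO and 20.8 in normoxia with DMSO. On the lower side FLRT2 was just inside at 619 in hypoxia with DMSO and 1239 in normoxia with DMSO and MTF2 just outside at 346 in hypoxia with DMSO and 692 in normoxia with DMSO. The members of each pair do not differ in their log2 ratio at the precision printed here.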

How the data were processed

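RNA of H460 cells, 1 array per condition, had been hybridised to Affymetrix Human Gene 1.0 ST arrays. The authors deposited linear intensities of 33297 probe sets. The methods name MAS 5.0 and the submitters' processing notes name RMA, so the background correction behind the values is not settled. Background correction sets how far ratios of dim genes are compressed. The genome build of the probe sets is not given in the sources used here. Each probe set was named through the platform annotation, in which 19460 had 1 symbol, 1754 several and 12083 were not listed. Of several probe sets of a gene the brightest by mean log2 intensity was kept (769 genes), which left 18417 genes. A gene was called brighter when its mean log2 intensity over the 6 arrays was above the median of these means over all probe sets.

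No value was normalized again. With 1 array a side no test was possible, and "higher" and "lower" stand for 2-fold (log2 ratio of 1). The ratios were set against the other 4 arrays. The script was tested on simulated data. The genes and lists were chosen with earlier results of these data known. Named genes were the 30 largest increases and 24 largest decreases among genes whose brighter array reached its median, up to 4 members of each of 40 lists by size of ratio, the HIF regulators, genes named by the study, and those next to the threshold. From these the text gives a selection, and some other list members were chosen after their values were seen. Alternatives were quantile normalization, centring on array medians, brighter genes only, the mean of the probe sets, 32 added to each intensity, other folds and other arrays. The scripts ran in Python 3.11.15. They used pandas 2.3.3 and numpy 2.4.6 for the ratios, scipy 1.17.1, and matplotlib 3.10.9 for the plots.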

Additional observations from a re-analysis of the deposited data

Results flagged for a closer look

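In 5 of the 983 genes past 2-fold, the opposite direction was seen, by 1.5-fold or more, between hypoxia and normoxia when both cultures had 100 nM of the compound. FRG2C had a log2 ratio of 1.00 with DMSO and -1.10 with 100 nM. For the small nucleolar RNAs SNORA75 and SNORD58A the log2 ratios with DMSO were -1.38 and -1.37, and with 100 nM they were 0.63 and 0.76. ZNF594 had -1.22 with DMSO and 0.98 with 100 nM, and ZNF667-AS1 -1.55 with DMSO and 0.62 with 100 nM. The difference between the ratios was not tested, and FRG2C, ZNF594 and ZNF667-AS1 did not reach an intensity of 120 on any array.

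No comparison above used the 13837 probe sets without a single gene symbol. Among them, 43 were at least 2-fold higher on both hypoxic arrays (DMSO and titled 10 nM) than on both normoxic arrays. Another 43 were at least 2-fold lower in the same way. For the 18417 genes the counts were 145 higher and 38 lower.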

How the results depend on the processing

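The count of 307 higher genes stayed between 219 and 338 under the scaling, intensity, probe set and pseudocount alternatives and with other arrays. It was 1639 at 1.5-fold, 86 at 3-fold, 185 against both normoxic arrays and 145 when both hypoxic arrays were also required. The 676 lower genes were 595 after quantile normalization, 915 after centring, 572 among brighter genes, 670 with the mean of probe sets and 503 with 32 added. They fell to 244 with normoxia at 100 nM as the reference, 341 with the array titled 10 nM as the hypoxic array, and 81 with both replaced. They were 2024 at 1.5-fold, 114 at 3-fold, 170 against both normoxic arrays and 38 with both hypoxic arrays required. The median of the HIF target groups was 0.41 after centring, and that of ribosome biogenesis -1.08. With the array titled 10 nM the ribosome biogenesis median was -0.74 against normoxia with DMSO and -0.71 against normoxia with 100 nM. The cause of these shifts was not tested.

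Of 166 named genes 120 were past 2-fold, of which 66 stayed past it under all 8 alternatives and 14 changed sign under at least 1. All sign changes of these came with normoxia with 100 nM as the reference. Against it the log2 ratio of hypoxia with DMSO was 0.02 for VHL, -0.56 for ZFP36, -0.35 for DUSP5, -0.44 for NR4A2, -0.04 for H2BC21 and -0.01 for DNAJB9. It was 0.44 for CHAC1, 0.45 for ULBP1, 0.03 for SESN2, 0.04 for PDE7B, 0.05 for PCF11 and 0.07 for SPRED2. For the array titled 10 nM over the same array it was 0.09 for VHL, -0.69 for ZFP36, -0.27 for DUSP5, -0.50 for NR4A2, -0.10 for FOSB, -0.20 for H2BC21 and -0.07 for SCGB1A1. It was 0.23 for CHAC1, 0.29 for ULBP1, 0.09 for PDE7B, 0.51 for PCF11 and 0.04 for SPRED2. No paired analysis was possible because each condition has 1 array. With 1 array per condition the precision of a ratio is not known, and the background correction behind the values is not settled.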
